A study of Mus musculus with 8 samples.

Results

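Voltage-gated calcium channels carry the calcium that enters a heart muscle cell with each beat. Their transcripts were followed here for 10 subunit genes, taken by gene symbol from a list, each of which matched a row among the 23045 genes of the table. These are 5 pore subunits (Cacna1c, Cacna1d, Cacna1s, Cacna1g and Cacna1h) and 5 auxiliary subunits (Cacnb2, Cacnb3, Cacna2d1, Cacna2d2 and Cacna2d3), and all 10 entered the test. RNA-seq libraries were made from total RNA of heart tissue, 4 labelled WT and 4 Mettl3 KO, to see how loss of the m6A writer METTL3 from cardiomyocytes changes transcripts. Every mouse was Mettl3 lox/lox, so the WT hearts carry the loxP-flanked gene as well, and only the Mettl3 KO mice also carried alphaMHC-MerCreMer. That transgene uses a cardiomyocyte promoter to make a Cre recombinase that tamoxifen activates. By the study's methods, mice of both genotypes were 10 to 16 weeks old when tamoxifen was injected (100 µg per 1 g of body weight, 7 days in a row), and the mouse strain listed for the study is C57Bl6. Cells other than cardiomyocytes keep Mettl3 in this model, WT mice lacked the Cre transgene, and the interval from injection to collection and the part of the heart taken were not given in the sources used here. Effects of Cre and of Mettl3 loss therefore cannot be told apart.

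The pore of a voltage-gated calcium channel is a large alpha1 subunit that senses voltage and passes calcium. L-type pores (Cacna1c, Cacna1d and Cacna1s) open at strong depolarization. In the working heart the product of Cacna1c sits in the T-tubule across from the ryanodine receptor and triggers calcium release. Cacna1s is the L-type pore of skeletal muscle, where it acts as the voltage sensor of contraction, and Cacna1d is known from pacemaker and atrial cells. T-type pores (Cacna1g and Cacna1h) open at weaker depolarization and are known from the conduction system and the fetal heart. Beta subunits bind the pore from inside the cell and help it to reach the membrane, and alpha2delta subunits bind it from outside and raise the current.

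METTL3 places m6A on adenosines inside a short consensus, of which GGACT is a strong form. This motif was looked up on the sense strand of the GENCODE M21 (GRCm38) transcript with the longest coding sequence of each member, so that the sequences the deleted enzyme could act on can be seen. Each of the 10 members held at least 2 copies, between 0.507 per kb in Cacnb2 and 3.63 per kb in Cacnb3. Across 14311 tested protein-coding genes the median was 1.05 per kb, and 91.9% held at least 1 copy. Within 200 bases of the end of the coding sequence, where m6A is usually dense, 6 members held a copy, as did 39.5% of those 14311 genes. Below are the copies nearest to that end in the 4 members that passed the test and in Cacna1c, the main cardiac pore. Capitals mark GGACT.
Cacna1s: ggttcgaggaGGACTagactcctta
Cacna1d: atgagctccaGGACTttggtcctgg
Cacna1h: gaaggagcaaGGACTgtacctcact
Cacna2d2: actgtgagatGGACTgcgaggttaa
Cacna1c: gatttcagaaGGACTgggacagttt
All 5 lie in coding sequence, at a distance of 157 bases from its end in Cacna1s, 92 in Cacna1d, 94 in Cacna1h, 827 in Cacna2d2 and 286 in Cacna1c. The Cacna1c transcript used is coding over all of its 6669 bases, so no copy past the coding end could be found. In the Cacna1d transcript 6540 of 6564 bases are coding. Cacna1s, which fell, had 1.12 copies per kb, and of the members that rose Cacna1h had 1.09, Cacna1d 1.52 and Cacna2d2 1.62. Since only 1 called member fell, nothing was read from these densities about direction. A match to these letters is not evidence of methylation, which was not measured in these libraries.

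In short, 4 of the 10 members passed the test at an adjusted p under 0.05 (limma, adjusted over all 20313 genes tested), against 7.91% of all genes tested. Cacna1d, Cacna1h and Cacna2d2 rose and Cacna1s fell, whereas Cacna1c, Cacna1g, Cacnb2, Cacnb3, Cacna2d1 and Cacna2d3 did not pass. Among pore subunits 3 of 5 passed and among auxiliary subunits 1 of 5. Genes called higher were 4.72% and genes called lower 3.19% of all genes tested. The genotypes did not overlap for 5 members (the 4 named and Cacna2d1), which holds for 11.5% of all genes tested. The median log2 fold change was 0.06 over the 10 members and -0.01 over all genes tested. Nothing was read from these shares about the group as a whole, since its members are few and were listed with earlier results known. The count of 4 members fell to 1 (Cacna1s) with an index of atrial markers, described below, as a covariate. Without Mettl3 KO replicate 4 it fell to 2.

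**Figure D1:**
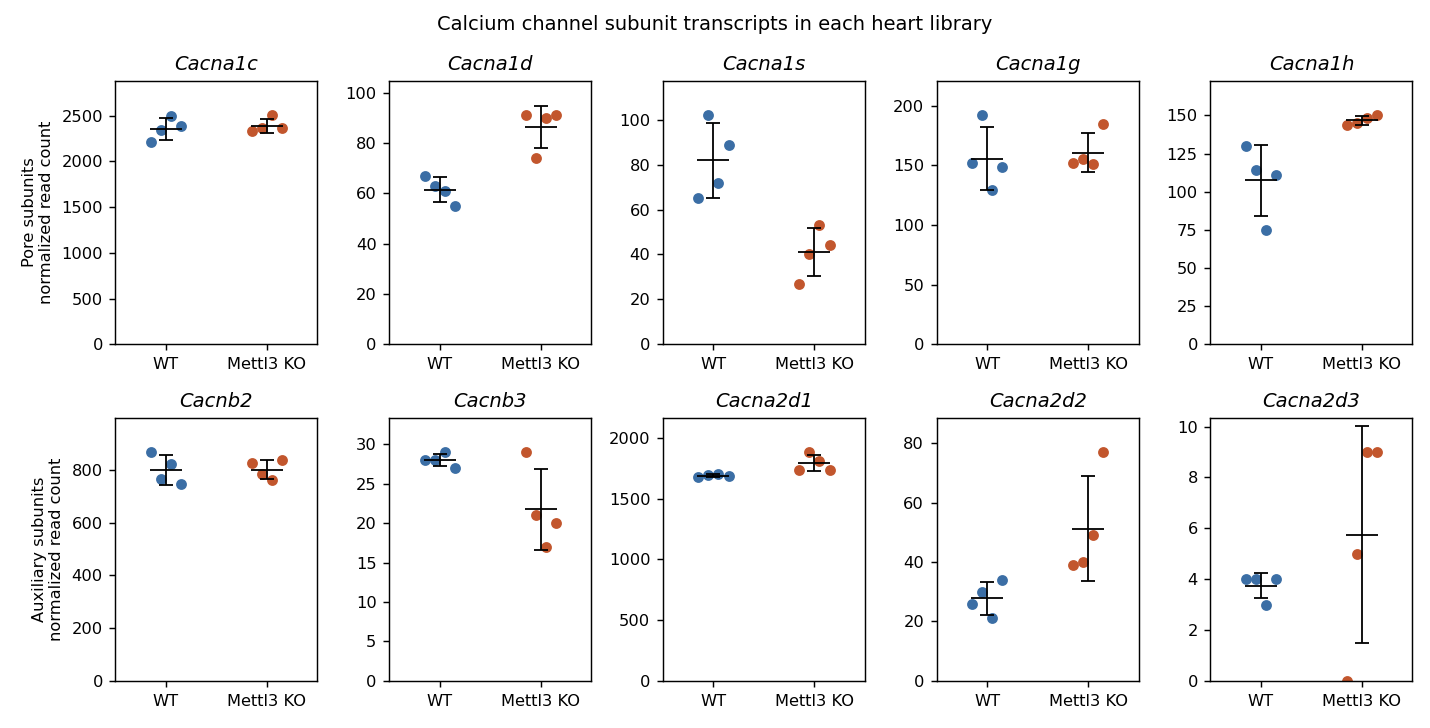
Normalized read count (y axis, from 0) of each subunit gene in the 4 WT and 4 Mettl3 KO libraries. Points are libraries in the order of their replicate numbers, bars are mean ± SD. Cacna1s is lower in every Mettl3 KO library (27 to 53) than in any WT library (65 to 102), while Cacna1c lies between 2208 and 2504 in both genotypes.

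As a check on the libraries, values summed to between 2839589 and 2916986 per library. The values are read counts already normalized by the authors, so the reads behind a value are known only approximately. Mettl3 was lower in all 4 Mettl3 KO libraries (68 to 78) than in WT (105 to 133), with a log2 fold change of -0.67 (standard error 0.10, adjusted p by limma = 0.000184). Heart muscle markers were high in every library, with Myh6 at 4882 to 5613 and Tnnt2 at 2566 to 3003. Libraries differed in atrial markers. Bmp10, a growth factor of atrial muscle, was listed at 0 in all WT libraries and in Mettl3 KO replicate 1, and at 195, 158 and 358 in Mettl3 KO replicates 2, 3 and 4. Myl4, the atrial light chain, was at 112, 114, 17 and 110 in WT libraries, and at 113, 269, 287 and 370 for Mettl3 KO libraries. The 8 atrial markers (Myl4, Myl7, Bmp10, Sln, Kcnj3, Dkk3, Pam and Stard10) summed to 2205 to 2405 for WT and 2610 to 3693 for Mettl3 KO libraries, and 6 of the 8 passed as higher. An atrial index, the mean of their standardized log2 values, ran from -1.06 to -0.34 in WT libraries. It was -0.41 in Mettl3 KO replicate 1, inside the WT range, and 0.71, 0.82 and 1.10 in replicates 2, 3 and 4. By single marker, replicate 1 was above every WT library in Dkk3 (132 against 36 to 84) and Pam (1840 against 1463 to 1539). It was below every WT library in Kcnj3 (438 against 532 to 616) and Stard10 (54 against 60 to 73). Its index is thus a mean of markers that deviated in both directions. Fibroblast markers moved with genotype too, summing to 2396 to 2678 for WT and 3064 to 3393 for Mettl3 KO libraries with 5 of 6 higher. Endothelial markers summed to 3427 to 3647 and 2982 to 3270, with 3 of 5 lower. Of 5 cardiomyocyte markers only Ryr2, the calcium release channel, passed (lower), and of 5 smooth muscle markers none did (limma). Over all genes tested 4.72% were called higher and 3.19% lower. In such bulk samples fewer cells of a type and less RNA per cell cannot be told apart.

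The L-type pores were examined first. Cacna1c (ENSMUSG00000051331, mm39 chromosome 6, 118564201 to 119173851, minus strand) held 2208, 2341, 2492 and 2383 normalized read counts in WT hearts and 2328, 2365, 2504 and 2368 in Mettl3 KO hearts. The groups overlapped almost completely. Its log2 fold change was 0.02 (standard error 0.04, adjusted p by limma = 0.822), with a 95% interval of -0.06 to 0.10. The transcript of the channel that triggers calcium release in cardiomyocytes thus differed by less than the spread between libraries.

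Cacna1s (ENSMUSG00000026407, mm39 chromosome 1, 135980488 to 136047560, plus strand) held 65, 102, 72 and 89 for WT and 27, 40, 53 and 44 for Mettl3 KO libraries. The lowest WT library lay above the highest Mettl3 KO library. The Mettl3 KO mean was 50% of the WT mean, with 82.0 ± 16.7 for WT and 41.0 ± 10.8 in Mettl3 KO libraries (SD, n = 4 each). The log2 fold change was -1.0 (standard error 0.17, 95% interval -1.36 to -0.64, adjusted p by limma = 0.000665). It passed in each of 18 alternatives. With the atrial index as a covariate it was -1.56 (adjusted p by limma = 9.53e-05). The 8 markers of skeletal muscle summed to 225 to 337 for WT and 244 to 374 for Mettl3 KO libraries, of which Acta1, which the heart also makes, gave 181 to 295 and 214 to 335. The other 7 were low in every library, with at most 14 for Myh2, 12 for Myh1, 10 for Tnnt3, 7 for Mylpf and Tnni2, 6 for Myh4 and 3 for Actn3. Of the 8, 7 did not pass, and Tnni2, fast troponin I, was called lower (adjusted p by limma = 0.0381) on values of 6, 5, 7 and 2 for WT and 1, 0, 2 and 1 for Mettl3 KO libraries.

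Cacna1d (ENSMUSG00000015968, mm39 chromosome 14, 29761896 to 30213412, minus strand) held 67, 63, 61 and 55 for WT and 91, 74, 90 and 91 for Mettl3 KO libraries. Every Mettl3 KO value exceeded every WT value, although replicate 2 stood below the other Mettl3 KO libraries. The mean rose from 61.5 ± 5.0 to 86.5 ± 8.35 (SD, n = 4 each), 141% of WT. The log2 fold change was 0.48 (standard error 0.11, 95% interval 0.25 to 0.72, adjusted p by limma = 0.00891). With the atrial index as a covariate the estimate was 0.52 and no longer passed (adjusted p by limma = 0.0895). In Mettl3 KO replicate 1, whose atrial index is within the WT range, Cacna1d was 91, as high as in replicate 4. That is a single library, and the part of atrial tissue in the rise was not tested. The sinoatrial node markers Hcn4 and Shox2 did not pass, with Hcn4 at 83 to 134 for WT and 74 to 101 for Mettl3 KO libraries, Isl1 was not in the table and Vsnl1 was at most 3. The sum of the 6 fibroblast markers given above differs between the genotypes without overlap, as the 4 called members do. Taken singly, 5 of the 6 did not overlap and Tcf21 did. The part of these markers in the differences of the called members was not tested.

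The start regions of the L-type pair that moved in opposite directions are shown because Cacna1s is a gene of skeletal muscle, whose regulators bind E-boxes, among them CAGCTG. Sequences run from 250 bases before to 50 bases after an annotated start and come from RefSeq (GRCm38.p6). Of the members, 8 had entries (Cacna1g and Cacna1h had none). Capitals mark CAGCTG, which reads the same on both strands.
Cacna1s, chr1:136052561-136052860, plus strand: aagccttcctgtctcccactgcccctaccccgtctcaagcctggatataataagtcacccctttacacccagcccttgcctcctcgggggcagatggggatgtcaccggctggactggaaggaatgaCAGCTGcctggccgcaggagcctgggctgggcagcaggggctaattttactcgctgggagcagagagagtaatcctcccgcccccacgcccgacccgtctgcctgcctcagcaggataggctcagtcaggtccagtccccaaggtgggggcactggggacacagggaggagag
Cacna1d upstream start, chr14:30491107-30491406, minus strand: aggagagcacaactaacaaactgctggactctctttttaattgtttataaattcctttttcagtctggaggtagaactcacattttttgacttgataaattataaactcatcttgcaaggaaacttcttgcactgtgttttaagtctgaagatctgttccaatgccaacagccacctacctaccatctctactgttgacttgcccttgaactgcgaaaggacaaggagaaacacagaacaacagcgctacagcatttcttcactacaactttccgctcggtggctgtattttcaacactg
Cacna1d downstream start, chr14:30353437-30353736, minus strand: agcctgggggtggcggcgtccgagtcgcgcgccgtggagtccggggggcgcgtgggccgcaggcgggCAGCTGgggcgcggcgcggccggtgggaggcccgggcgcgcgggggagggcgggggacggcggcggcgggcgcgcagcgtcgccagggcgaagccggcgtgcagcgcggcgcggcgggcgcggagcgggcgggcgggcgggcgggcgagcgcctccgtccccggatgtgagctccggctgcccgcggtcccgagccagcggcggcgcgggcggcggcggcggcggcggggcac
CAGCTG occurs in the Cacna1s region and in the downstream but not the upstream Cacna1d region. Over the 13 start regions of the members it occurs in 6, and over all 32851 regions in 16.3%. The GC content is 63.0% for Cacna1s, 40.3% for the upstream and 87.3% for the downstream Cacna1d start. Which Cacna1d start the reads came from is not separated in the gene counts. The letters alone show no binding.

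T-type pores were next. Cacna1h (ENSMUSG00000024112, mm39 chromosome 17, 25593259 to 25652757, minus strand) held 130, 114, 75 and 111 for WT and 144, 145, 148 and 150 for Mettl3 KO libraries. Mettl3 KO values were tightly grouped and all above WT, where replicate 3 was lowest. The mean rose from 107.5 ± 23.2 to 147 ± 2.75 (SD, n = 4 each), with a log2 fold change of 0.47 (standard error 0.12, 95% interval 0.23 to 0.72, adjusted p by limma = 0.0148). WT replicate 3 is also the library with the lowest atrial index, and without it the change was 0.31 (adjusted p by limma = 0.0367). With the index as a covariate the change was 0.23 (adjusted p by limma = 0.516). Without Mettl3 KO replicate 2, 3 or 4 it was 0.48, 0.47 and 0.46 and did not pass (adjusted p by limma = 0.0527, adjusted p = 0.0604 and adjusted p = 0.0580).

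Cacna1g (ENSMUSG00000020866, mm39 chromosome 11, 94299217 to 94365024, minus strand) held 152, 192, 129 and 149 for WT and 152, 155, 151 and 185 for Mettl3 KO libraries. The ranges overlapped, and 3 of the 4 Mettl3 KO values lay within 4 of each other. The log2 fold change was 0.06 (standard error 0.10, adjusted p by limma = 0.828), with a 95% interval of -0.15 to 0.27. Its sign changed with the atrial index as a covariate (-0.16) and without WT replicate 3 or Mettl3 KO replicate 4, so no direction is given.

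Auxiliary subunits were dominated by a pair of genes whose change did not pass. Cacnb2 (ENSMUSG00000057914, mm39 chromosome 2, 14607899 to 14992719, plus strand), the main cardiac beta subunit, held 868, 764, 821 and 747 for WT and 826, 783, 761 and 836 for Mettl3 KO libraries. The log2 fold change was 0.00 (0.0042, standard error 0.05, adjusted p by limma = 0.982), with a 95% interval of -0.10 to 0.11. Its sign changed in 6 of 18 alternatives, so no direction is given.

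Cacna2d1 (ENSMUSG00000040118, mm39 chromosome 5, 16139689 to 16579509, plus strand), the main cardiac alpha2delta subunit, held 1675, 1695, 1703 and 1688 for WT and 1740, 1884, 1809 and 1740 for Mettl3 KO libraries. The groups did not overlap, yet the log2 fold change of 0.08 (standard error 0.04, 95% interval 0.01 to 0.16) did not pass over all genes (adjusted p by limma = 0.179).

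Cacna2d2 (ENSMUSG00000010066, mm39 chromosome 9, 107276811 to 107406542, plus strand), an alpha2delta subunit best known from the brain, held 26, 30, 21 and 34 for WT and 39, 40, 49 and 77 for Mettl3 KO libraries. The groups did not overlap, and Mettl3 KO replicate 4 stood highest. The mean rose from 27.8 ± 5.56 to 51.3 ± 17.7 (SD, n = 4 each), 185% of WT, with a log2 fold change of 0.83 (standard error 0.20, 95% interval 0.41 to 1.25, adjusted p by limma = 0.0117). Replicate 4 also had the highest atrial index, and without it the change was 0.62 and did not pass (adjusted p by limma = 0.0730). With the index as a covariate the change was 0.24 (adjusted p by limma = 0.698). In Mettl3 KO replicate 1 the value was 39, against 34 in the highest WT library. The part of atrial tissue in the rise of Cacna2d2 was not tested. The neuronal markers Dbh, Prph and Tubb3 summed to 23 to 34 for WT and 17 to 34 for Mettl3 KO libraries, and none of them passed.

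Cacnb3 (ENSMUSG00000003352, mm39 chromosome 15, 98528721 to 98542410, plus strand), a beta subunit of smooth muscle and neurons, held 28, 28, 29 and 27 for WT and 29, 21, 17 and 20 for Mettl3 KO libraries. Mettl3 KO replicate 1 equalled the highest WT value while the other 3 lay below all WT values. The log2 fold change was -0.38 (standard error 0.20, 95% interval -0.78 to 0.03, adjusted p by limma = 0.291), and 0.01 with the atrial index as a covariate. Cacna2d3 (ENSMUSG00000021991, mm39 chromosome 14, 28626900 to 29443821, minus strand) was barely covered, with 4, 4, 3 and 4 for WT and 0, 5, 9 and 9 for Mettl3 KO libraries. At this depth its interval of -1.08 to 1.21 around 0.07 (adjusted p by limma = 0.972) leaves its direction unknown.

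**Figure D2:**
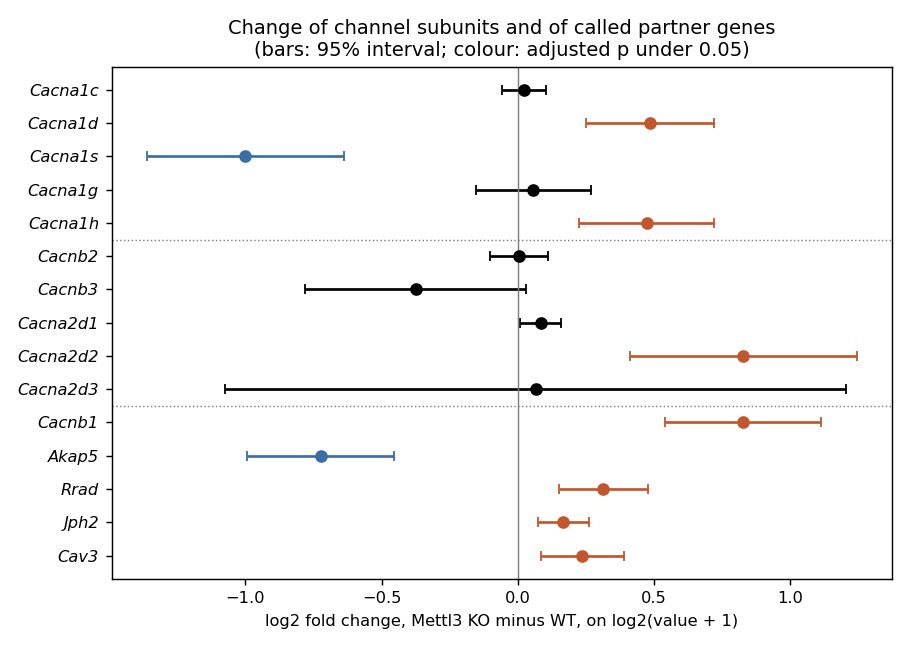
Log2 fold change, Mettl3 KO minus WT (x axis), with 95% intervals from limma for the 5 pore subunits, the 5 auxiliary subunits and the partner genes that passed, from top to bottom. Coloured points have an adjusted p under 0.05. Cacna1s at -1.0 and Cacna2d2 at 0.83 lie farthest from 0 among the members, and the interval of Cacna1c is narrow around 0.02.

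To compare levels between genes, normalized read counts were divided by the length of all annotated exons of a gene (GENCODE M21, GRCm38). This length joins the exons of every isoform, with 21191 bases for Cacna1c, 12621 for Cacna1d and 6550 for Cacna1s. The single transcripts used above have 6669, 6564 and 6251 bases, so the order of genes depends on the length chosen. In WT hearts the order per kb of exon was Cacna2d1 at 136 ± 0.956, Cacna1c at 111 ± 5.54 and Cacnb2 at 60.5 ± 4.18 (SD, n = 4). Cacna1g (15.3 ± 2.60), Cacna1s (12.5 ± 2.55) and Cacna1h (11.01 ± 2.38) followed, and the libraries of each overlapped those of the next. Cacnb3 (6.98 ± 0.204), Cacna1d (4.87 ± 0.396) and Cacna2d2 (3.49 ± 0.700) came below, without overlap between neighbours, and Cacna2d3 was at 0.430 ± 0.0573. In Mettl3 KO hearts Cacna1s was at 6.26 ± 1.65 and Cacna1d at 6.85 ± 0.661 (SD, n = 4), so that their ranges of 4.12 to 8.09 and 5.86 to 7.21 overlapped, which in WT hearts they had not. This depends on the lengths. Before division by length the ranges overlapped in WT hearts (Cacna1s 65 to 102, Cacna1d 55 to 67). They did not in Mettl3 KO hearts (27 to 53 and 74 to 91).

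**Figure D3:**
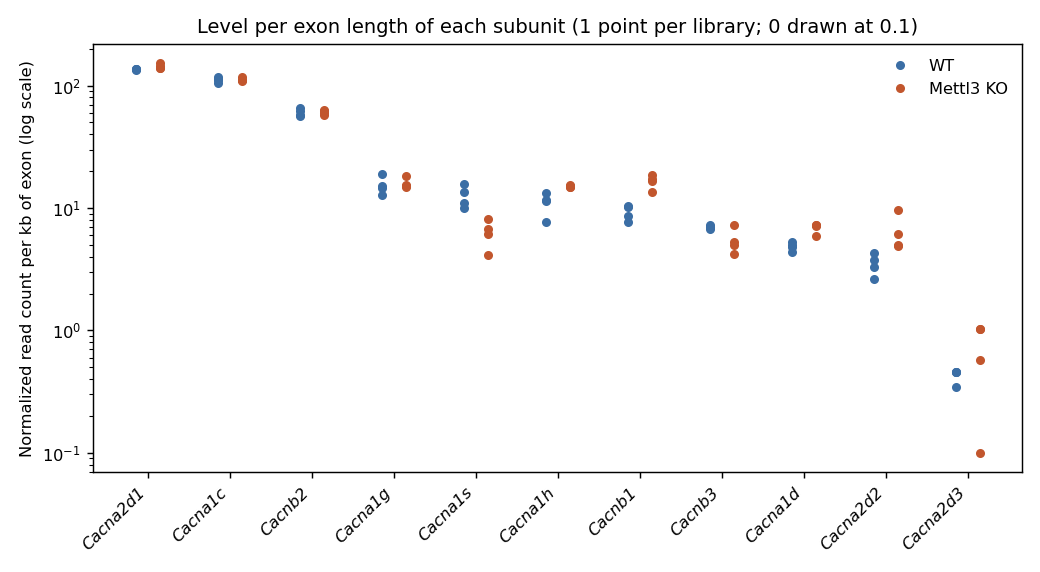
Normalized read count per kb of exon (y axis, log scale) of each subunit, ordered by the WT mean, with 1 point per library. Cacna2d1, Cacna1c and Cacnb2 lie between 56.5 and 152 in every library, and every other gene plotted stays below 20; a value of 0 in Cacna2d3 is drawn at the bottom.

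Ratios between subunits do not depend on how a library was scaled. Per exon length, Cacna1s stood to Cacna1c as 0.113 ± 0.0227 for WT and 0.0552 ± 0.0131 in Mettl3 KO libraries (SD, n = 4), without overlap. Cacna1d stood to Cacna1c as 0.0440 ± 0.00534 and 0.0608 ± 0.00594, again without overlap. Within the L-type pores, Cacna1c made up 86.5% ± 1.65 of the summed level per length for WT and 89.6% ± 1.02 in Mettl3 KO hearts, Cacna1s 9.71% ± 1.77 and 4.94% ± 1.13, and Cacna1d 3.80% ± 0.468 and 5.44% ± 0.529 (SD, n = 4). The T-type ratio of Cacna1g to Cacna1h was 1.42 ± 0.258 for WT and 1.05 ± 0.0913 in Mettl3 KO hearts, with overlapping libraries. Cacna2d2 made up 2.49% ± 0.491 of the summed alpha2delta level for WT and 4.26% ± 1.49 in Mettl3 KO hearts. The size of each ratio and share depends on the exon lengths used, which are the same for both genotypes. These ratios combine values tested above and were not tested again.

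**Figure D4:**
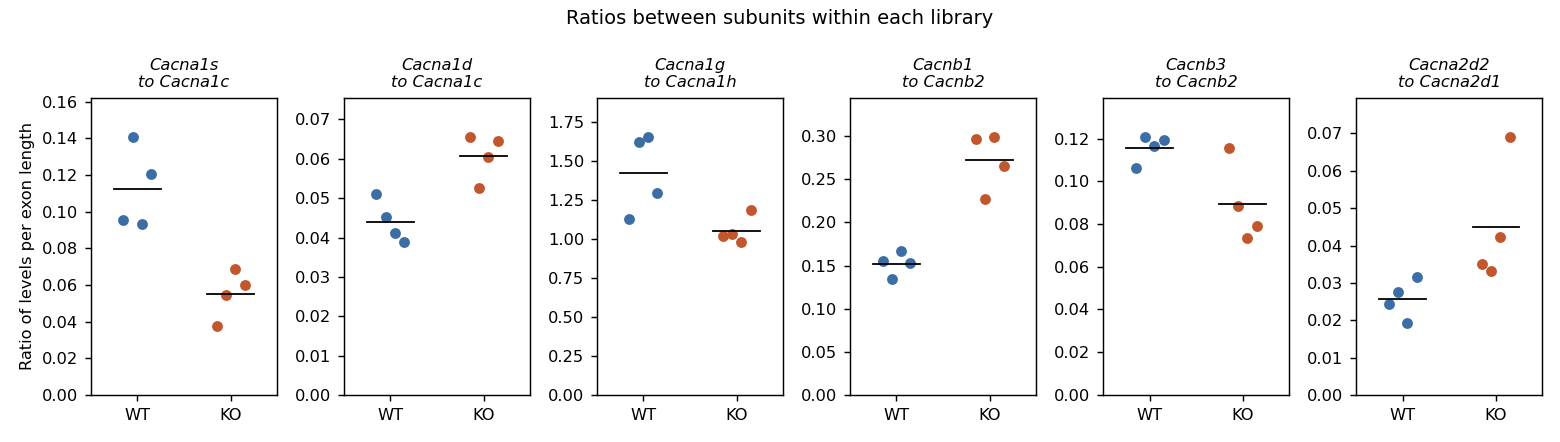
Ratio of the levels per exon length of pairs of subunits (y axis, from 0) in each WT and Mettl3 KO (KO) library, with the mean as a line. The ratio of Cacna1s to Cacna1c lies between 0.0935 and 0.141 for WT and between 0.0375 and 0.0685 for Mettl3 KO libraries, and that of Cacnb1 to Cacnb2 between 0.134 and 0.167 and between 0.228 and 0.299.

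**Figure D5:**
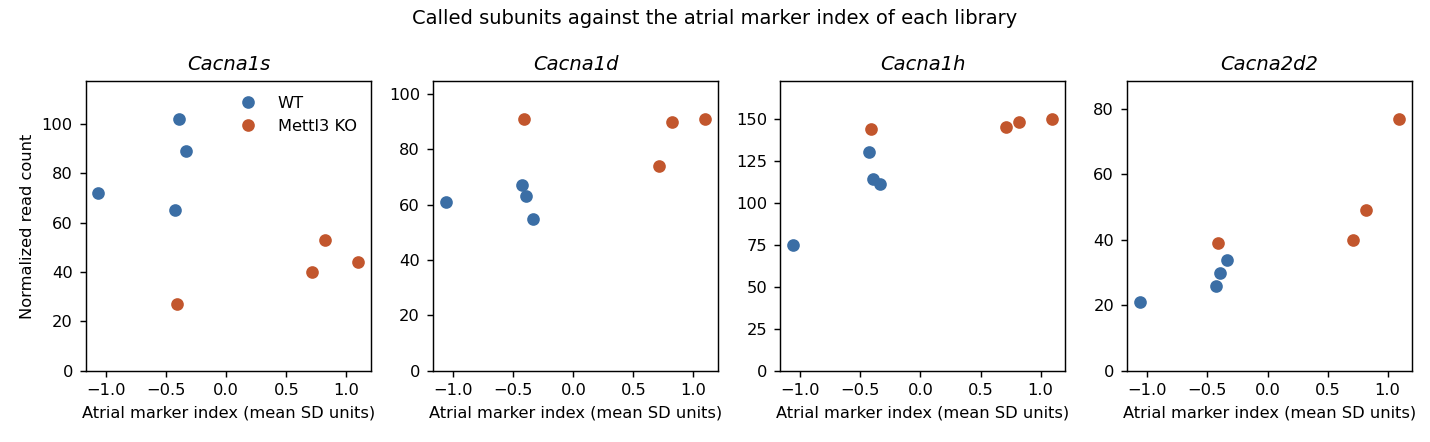
Normalized read count (y axis, from 0) of the 4 called subunits against the atrial marker index of each library (x axis, mean of standardized log2 values). Mettl3 KO replicate 1 is the library at -0.41, within the WT range of -1.06 to -0.34, and there Cacna1s is 27, Cacna1d 91, Cacna1h 144 and Cacna2d2 39, each beyond the WT values. It is a single library, and the part of atrial tissue in these differences was not tested.

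The rest of the channel family was read from a list of 16 genes, of which 10 were in the table and 7 could be tested. Only Cacnb1, the beta subunit of skeletal muscle that is also made in heart, passed among them (against 7.91% of all genes tested). Cacnb1 (ENSMUSG00000020882, mm39 chromosome 11, 97892334 to 97913860, minus strand) held 46, 35, 47 and 39 for WT and 84, 61, 78 and 76 for Mettl3 KO libraries, with no overlap. Its log2 fold change was 0.83 (standard error 0.14, adjusted p by limma = 0.000438), it passed in each of 18 alternatives, and with the atrial index as a covariate it was 1.03. The summed fibroblast markers were 2678, 2396, 2627 and 2471 across the WT libraries and 3329, 3064, 3393 and 3304 across the Mettl3 KO libraries. Cacnb1 and this sum were both lowest in replicate 2 of each genotype, and the part of these markers in the rise was not tested. The skeletal pore Cacna1s and the skeletal beta subunit Cacnb1 therefore moved in opposite directions. The skeletal gamma subunit Cacng1 was listed at 0 in 7 of 8 libraries. The neuronal pore Cacna1a held 58 to 74 for WT and 62 to 68 for Mettl3 KO libraries (adjusted p by limma = 0.991).

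Among 19 regulators of the channel, 18 were tested and 4 passed (against 7.91% of all genes tested), 3 higher and 1 lower (4.72% and 3.19% of all genes tested), with a median log2 fold change of 0.01 over the tested 18. Akap5, an anchor that brings protein kinase A and calcineurin to the L-type channel, held 100, 100, 73 and 93 for WT and 57, 64, 45 and 54 for Mettl3 KO libraries. It fell by 0.72 on the log2 scale (standard error 0.13, adjusted p by limma = 0.000879) and passed in each of 18 alternatives. Rrad, a small GTPase that binds beta subunits and restrains the L-type current, held 247, 309, 310 and 243 for WT and 375, 331, 326 and 340 for Mettl3 KO libraries. Its log2 fold change was 0.31 (standard error 0.08, adjusted p by limma = 0.0144), and without WT replicate 1 or 4 it did not pass (0.26, adjusted p by limma = 0.0697, and 0.25, adjusted p by limma = 0.0735). The related GTPases Rem1, with 56 to 66 for WT and 41 to 53 for Mettl3 KO libraries, and Gem, with 19 to 34 and 24 to 36, did not pass, and Rem2 was not in the table.

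Jph2, which ties the T-tubule to the sarcoplasmic reticulum, and Cav3, the muscle caveolin, passed near the threshold. Jph2 changed by 0.17 on the log2 scale (standard error 0.05, adjusted p by limma = 0.0241) but missed the threshold under 6 of the 18 alternatives. Cav3 had 0.24 (standard error 0.07, adjusted p by limma = 0.0483) but missed it under 14. The kinase and calmodulin genes Prkaca, Prkacb, Camk2d, Calm2 and Calm3, the anchor Akap7, the scaffold Ahnak, the calcium sensor Sri (sorcin) and the adaptors Stac, Stac2 and Stac3 did not pass.

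Finally, protein-coding genes outside the lists with a mean of at least 20 (10890 genes) were ranked by Pearson correlation of their log2 values with Cacna1c and each called member over the 8 libraries, as a description without a test. For called members this mostly follows the genotype. Closest to Cacna1s were Tmem94 (r = 0.99), Mia2 (r = 0.99) and Ctnna3 (r = 0.98), the last encoding an alpha-catenin of the intercalated disc, and each was higher in every WT than in any Mettl3 KO library. Closest to Cacna1d were Zbtb38 (r = 0.98), Serpinf1 (r = 0.98) and Postn (r = 0.98). Postn, a matrix protein of activated fibroblasts, held 337 to 453 for WT and 549 to 846 for Mettl3 KO libraries, and like Cacna1d was lowest of the Mettl3 KO libraries in replicate 2. Among the closest to Cacna1h were Tgfbr1 (r = 0.99) and Prickle1 (r = 0.98), each lowest in WT replicate 3. Closest to Cacna2d2 were Foxp2 (r = 0.97), Nap1l3 (r = 0.96) and Erlin1 (r = 0.96), each highest in Mettl3 KO replicate 4. Cacna1c itself varied with Tent2 (r = 0.94), Terf2 (r = 0.94) and Thumpd3 (r = 0.91), and each of these was lowest in WT replicate 1.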

How the data were processed

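Total RNA of heart tissue (4 WT and 4 Mettl3 KO libraries) was sequenced as stranded single-end libraries. The authors trimmed reads (Trimmomatic 0.39), aligned them to mm39 (STAR 2.7.11a), removed duplicates (Picard 3.1.1) and multi-mapping, ribosomal and mitochondrial reads, counted exon reads by strand without those shared by several genes (featureCounts 2.0.4) and normalized with DESeq2 1.36.0. The deposited values are a score: normalized counts rounded to whole numbers, not raw counts. Removing duplicates lowers abundant transcripts, and gene counts sum isoforms.

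The test used limma (version 3.58.1, under R 4.3.3) on values log2-transformed after adding 1, over the 20313 genes whose mean was 1 or more; 2732 genes fell below this. It had a mean-variance trend, genotype as its single term, two-sided tests and Benjamini-Hochberg adjustment. Fold changes on this scale understate low genes. The labels name separate samples but not separate animals, so p-values measure the spread between these libraries, which may be technical. The test was also run on simulated data (20313 genes, 200 of them given a log2 change of 1). These had a dispersion, the spread between libraries beyond counting, of 0.005. In them 60.9% of the changed genes that were tested and 95.6% of those with a mean of at least 20 were recovered. Recovery at a larger spread was not tested. Members, lists and tests were chosen with earlier results of these data known. Named genes were Mettl3, the members, listed genes that passed, marker genes and the 3 genes most alike each of 5 members. A few listed or ranked genes are not reported here. Exon lengths (for 96.2% of tested genes) and transcripts came from GENCODE M21. Alternatives were other scalings, pseudocounts (0.5 and 4), filters (none, mean of at least 10), voom, robust eBayes, a replicate block, an atrial index and each library left out. All 8 columns were used.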

Additional observations from a re-analysis of the deposited data

Results flagged for a closer look

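Dixon's test at 95% was applied to the 4 libraries of a genotype: the distance of the highest or lowest from its neighbour is given as a share of the whole range. Among 16 genes and the library total in each genotype, 4 of 34 groups were marked, where chance marks about 1.7 (1 in 20). Cacna1d in Mettl3 KO hearts had a share of 0.941, with replicate 2 at 74 against 90 to 91 in the others. Cacna1g in Mettl3 KO hearts had 0.882, with replicate 4 at 185 against 151 to 155. Cav3 in Mettl3 KO hearts had 0.926, with replicate 1 at 217 against 190 to 192. Cacna2d3 in WT hearts had a share of 1, with replicate 3 at 3 against 4 in the others, which is a difference of about 1 read.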

How the results depend on the processing

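Over 18 alternatives, Cacna1s (-1.56 to -0.82), Cacnb1 (0.75 to 1.03), Akap5 (-0.83 to -0.63) and Mettl3 (-0.71 to -0.60) kept their direction and their call. Cacna1d (0.43 to 0.56) passed in 17, Cacna2d2 (0.24 to 0.94) and Rrad (0.25 to 0.50) in 16, Cacna1h (0.23 to 0.57) in 14, Jph2 in 12 and Cav3 in 4. Cacna2d1 kept its direction (0.06 to 0.10) and passed in none. With the atrial index as a covariate 1024 genes were called, against 1607, and 1 member (Cacna1s) against 4. That fit has fewer degrees of freedom and a covariate that differs between genotypes. Leaving out a library gave 1019 (without Mettl3 KO replicate 3) to 1596 genes and 2 (without Mettl3 KO replicate 4) to 4 members.

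Signs changed for members that did not pass, and the cause was not tested. With the atrial index Cacna1g was -0.16, Cacnb3 0.011 and Cacna2d3 -2.10 (limma adjusted p = 0.0538, from values of at most 9). With equal totals Cacnb2 was -0.01 (-0.0061) and with voom -0.01 (-0.0065), and Cacna2d3 was -0.090 with a pseudocount of 0.5 and -0.11 with voom. Leaving out a library gave -0.0085 to 0.050 for Cacna1c, -0.027 to 0.16 for Cacna1g, -0.028 to 0.044 for Cacnb2 and -0.27 to 0.83 for Cacna2d3. No scaling changed a called member, and Cacna2d3 was not tested with a mean of at least 10.

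The labels do not say whether replicate numbers pair the samples, and the correlations here cannot decide it. Same-numbered deviations correlated by -0.041 to 0.088 over 12027 genes. WT replicates 1 (0.052 against at most 0.043) and 4 (0.088 against at most 0.081) correlated best with their own number. Replicates 2 and 3 did not. With the number as a replicate block 1346 genes and 4 members were called, with Cacna1s at an adjusted p of 0.0014, Cacna1d 0.0218, Cacna1h 0.0263 and Cacna2d2 0.0119 (limma), and Cav3 at 0.24 no longer passed (limma adjusted p = 0.0645). Values below about 10 normalized counts, as in Cacna2d3, rest on few reads, and the part of depth in them was not tested.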
